A study of Mus musculus with 8 samples.

Results

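The ATF4 amino acid response genes described here are 10 mouse genes, Trib3, Pck2, Asns, Chac1, Ddit3, Atf4, Psat1, Slc7a11, Sesn2 and Mthfd2, out of 28785 genes listed in at least 1 library. They were chosen by Ensembl identifier as known members of the ATF4 response, with earlier results of these data in view. Trib3 and Pck2 in particular were picked as among the genes whose chromatin RNA was most lowered after heat shock relative to without it. All values of that contrast are therefore a description. RNA was measured in mouse embryonic fibroblasts of genotype TSC2+/+ on the C57BL/6J strain, grown in DMEM with serum. Cells labelled PostHS were held at 42 °C for 1 h and then at 37 °C for 3 h, and control cells had no heat shock. Both were fractionated into cytoplasm and pelleted chromatin in buffers containing α-amanitin, an inhibitor of RNA polymerase II, which all groups therefore share. The groups were chromatin after heat shock, chromatin without heat shock, cytoplasm after heat shock and cytoplasm without heat shock, with 1 library each, so nothing here could be tested against replicates and each value stands for its own library alone. The labels do not say how many cultures went into a library. The series also holds 2 m6A immunoprecipitated chromatin libraries and their 2 inputs, not analysed here.

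ATF4 is a bZIP transcription factor whose mRNA carries short upstream open reading frames, so that its protein is made mainly when the initiation factor eIF2 is phosphorylated, as on amino acid shortage or other stress. The protein binds C/EBP-ATF response elements and switches on genes for amino acid synthesis, amino acid uptake and stress control. In fibroblasts the mTOR kinase complex held in check by TSC2 is also known to raise ATF4 output. Among the 10 genes, Atf4 and Ddit3 encode transcription factors, Trib3 and Sesn2 encode inhibitors of growth or stress signalling, Asns, Psat1, Mthfd2 and Pck2 encode metabolic enzymes, and Slc7a11 and Chac1 act on cystine and glutathione.

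All 10 genes were listed in all 4 libraries. The files give Ensembl identifiers without names, and the names of these 10 came with the choice of genes. As a check, each gene's length as recovered from its RPKM values was set against the RefSeq span of the same symbol on GRCm38.p6, and 7 of 10 lay within 100 bp of it. Trib3 (ENSMUSG00000032715, chr2:152337425-152344060, 6636 bp in RefSeq and 6611 bp implied), Pck2 (ENSMUSG00000040618, chr14:55540263-55550020, 9758 and 9752 bp), Asns (ENSMUSG00000029752, chr6:7675165-7693209, 18045 and 18086 bp) and Mthfd2 (ENSMUSG00000005667, chr6:83305704-83326011, 20308 and 20218 bp) were in this group. So were Chac1 (ENSMUSG00000027313, chr2:119351242-119354326, 3085 and 3153 bp), Atf4 (ENSMUSG00000042406, chr15:80255184-80257545, 2362 and 2357 bp) and Ddit3 (ENSMUSG00000025408, chr10:127290793-127296291, 5499 and 5515 bp). Sesn2 (ENSMUSG00000028893, chr4:132492804-132510456, 17653 bp) had an implied length 817 bp longer than its RefSeq span. Psat1 (ENSMUSG00000024640, chr19:15905123-15925059, 19937 bp) and Slc7a11 (ENSMUSG00000027737, chr3:50364936-50499087, 134152 bp) had implied lengths of 42660 and 551089 bp, so their rows cover more sequence than the RefSeq genes. Reads of these rows may thus come from outside the RefSeq genes, and other genes in that extra sequence were not looked for. The Ddit3 span overlaps 2 other RefSeq genes, Mbd6 and Mars1, and how reads in the overlap were assigned is not given in the sources used here, which leaves the values of Ddit3 uncertain. RPKM here is relative to the whole span with introns, so it understates spliced RNA of long genes.

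Promoter windows of 300 bases, from 250 before to 50 after a RefSeq start, were searched on both strands for TGATGNAA, the core letters of the C/EBP-ATF response element, and for TGACGTCA, the full cyclic AMP response element. TGATGNAA was found in 5 of 10 members (Trib3, Pck2, Asns, Chac1 and Slc7a11), or 5 of 11 member windows, while 3.97% of all 32851 windows held it. TGACGTCA was found in 0 of 10 members, and 1.79% of all windows held it. These matches are descriptions of the letters and not measured binding sites. The members were chosen as known ATF4 response genes, so their share with a match is a description too. The 4 members with a match upstream of the start are shown because they hold the letters by which ATF4 is known to bind, each as the 250 bases before the start from RefSeq on GRCm38.p6, read 5′ to 3′ on the gene's strand, with the matches in capitals. Asns is chr6:7693210-7693459 on the minus strand, Pck2 is chr14:55540016-55540265 on the plus strand, Chac1 is chr2:119350992-119351241 on the plus strand and Slc7a11 is chr3:50443614-50443863 on the minus strand, where the window lies inside the RefSeq span of Slc7a11.
Asns: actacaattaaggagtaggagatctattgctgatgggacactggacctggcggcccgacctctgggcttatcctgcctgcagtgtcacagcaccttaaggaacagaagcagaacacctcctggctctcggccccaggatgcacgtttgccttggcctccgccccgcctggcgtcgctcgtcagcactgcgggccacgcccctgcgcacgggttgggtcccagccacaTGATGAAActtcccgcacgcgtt
Pck2: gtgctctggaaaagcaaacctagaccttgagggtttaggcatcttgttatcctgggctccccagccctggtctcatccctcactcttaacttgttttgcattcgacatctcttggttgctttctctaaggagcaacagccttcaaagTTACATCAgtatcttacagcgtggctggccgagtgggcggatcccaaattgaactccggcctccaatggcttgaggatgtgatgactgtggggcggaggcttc
Chac1: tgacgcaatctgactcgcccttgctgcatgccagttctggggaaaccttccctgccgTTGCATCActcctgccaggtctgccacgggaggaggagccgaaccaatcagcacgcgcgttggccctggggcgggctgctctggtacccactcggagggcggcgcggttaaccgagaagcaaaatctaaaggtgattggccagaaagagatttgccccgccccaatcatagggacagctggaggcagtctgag
Slc7a11: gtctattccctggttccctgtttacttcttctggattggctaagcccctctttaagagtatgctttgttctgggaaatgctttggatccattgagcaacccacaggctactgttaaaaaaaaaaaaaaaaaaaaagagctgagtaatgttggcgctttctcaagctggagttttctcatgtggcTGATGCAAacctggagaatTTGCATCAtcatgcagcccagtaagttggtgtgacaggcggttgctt
The match began 23 bases before the start in Asns, 103 in Pck2 and 193 in Chac1, and Slc7a11 held 2 matches on opposite strands, beginning 66 and 47 bases before it. In Trib3 the match lay downstream, 14 bases past the start, and is shown as the 24 bases around it (chr2:152344031-152344054, minus strand).
Trib3: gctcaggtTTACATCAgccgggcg

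The library totals implied by the values were 19536459 reads for chromatin after heat shock, 18364642 for chromatin without heat shock, 11131382 for cytoplasm after heat shock and 8292312 for cytoplasm without heat shock. A single gene of 1831 bp took 14.0% and 8.01% of the chromatin reads and 47.4% and 44.6% of the cytoplasmic reads, after and without heat shock, which sets the scale on which RPKM is read. Fibroblast, fraction and heat shock marker genes and other genes of the ATF4 pathway were listed for a check, but their identifiers are not paired with names in the tables used here, so the cell type label and the rest of the pathway were not analysed here. Brackets after a fold give the exact 95% Clopper-Pearson interval on reads. The reads carry no molecular identifiers and may be copies of one molecule, so these intervals take in counting error alone.

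Chromatin RNA of all 10 genes was lower after heat shock than without it, from Trib3 at 14.3-fold lower to Chac1 at 1.40-fold lower, where 49.7% of the 15486 genes with at least 20 reads had a plain ratio below 1. Together the 10 genes held 5118 reads in chromatin after heat shock, or 0.0262% of that library, against 15071 reads or 0.0821% in chromatin without heat shock, which is 3.13-fold lower (3.03 to 3.23). Psat1 held the largest share of these chromatin reads, 34.7% after heat shock and 25.8% without it, and the other 9 genes together were 3.56-fold lower (3.42 to 3.70). In cytoplasm the 10 genes held 2114 reads after heat shock, 0.0190% of the library, against 2452 reads or 0.0296% without heat shock, 1.56-fold lower (1.47 to 1.65). There 80.5% of the 10763 genes with at least 20 reads had a plain ratio below 1. The median plain log2 ratio was -0.58 over these genes and -0.57 over the 10 members. In such bulk libraries, fewer cells that express a gene and less RNA per cell cannot be told apart.

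For counts of genes, a log2 ratio of RPKM plus a pseudocount of 0.1 was taken over genes with a mean of at least 0.5 RPKM, which 9 of 10 members passed, with Slc7a11 below it. Of these 9, 6 were at least 2-fold lower in chromatin after heat shock (Trib3, Pck2, Asns, Ddit3, Sesn2 and Psat1), where 10.7% of the 7643 genes compared were, and 0 of 9 were at least 2-fold higher, where 13.3% of all genes were. The median log2 ratio was -1.51 over the 9 members and 0.04 over all genes. These counts use the contrast on which genes were picked, so nothing is read from them. Of all genes past 2-fold, 55.3% were on the higher side on this scale, 18.4% when library RPKM sums were made equal and 68.6% with the 10 highest genes left out of the scale. With plain ratios of genes with at least 20 reads, 7 of 10 members were at least 2-fold lower, Slc7a11 included, where 17.4% of 15486 genes were.

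The transcription factor genes differed in where their RNA was lower. Atf4 had 10.9 RPKM in chromatin after heat shock (500 reads), against 16.2 RPKM in chromatin without heat shock (701 reads). In cytoplasm it had 9.68 RPKM after heat shock (254 reads), against 27.0 RPKM without heat shock (528 reads). Atf4 RNA was thus lower after heat shock in both fractions, 1.49-fold in chromatin (1.33 to 1.68) and 2.79-fold in cytoplasm (2.40 to 3.25). It ranked 147th lowest of 7350 genes compared in cytoplasm, and it had the highest RPKM of the 10 genes in each of the 4 libraries. That order is per length of the span, and in both chromatin libraries the Atf4 interval overlapped that of Chac1, while by reads Psat1 was the highest in every library.

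Ddit3, which encodes the stress transcription factor CHOP, had 1.16 RPKM in chromatin after heat shock (125 reads), against 4.07 RPKM in chromatin without heat shock (412 reads). Its cytoplasmic level was 0.358 RPKM after heat shock (22 reads), against 0.328 RPKM without heat shock (15 reads). The chromatin level was 3.51-fold lower (2.86 to 4.32), while the cytoplasmic ratio of 1.09 had an interval of 0.542 to 2.26 that includes no difference.

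Trib3, a pseudokinase that is induced by ATF4 and CHOP and is known to restrain them, had 0.712 RPKM in chromatin after heat shock (92 reads), against 10.2 RPKM in chromatin without heat shock (1241 reads). In cytoplasm it had 0.639 RPKM after heat shock (47 reads), against 0.638 RPKM without heat shock (35 reads). Chromatin without heat shock thus stood far above the other 3 libraries, which lay close together on the RPKM scale as deposited. After heat shock, the log2 ratio of chromatin over cytoplasm was 1.22 with equal library sums and -1.50 once the all-gene median was set to 0. The chromatin level was 14.3-fold lower after heat shock (11.6 to 17.9), the 4th lowest log2 ratio of 7643 genes, and the cytoplasmic ratio was 1.00 (0.632 to 1.60).

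Sesn2, which encodes a leucine-sensing inhibitor of mTOR signalling, had 0.574 RPKM in chromatin after heat shock (207 reads), against 1.82 RPKM in chromatin without heat shock (619 reads). Its cytoplasmic level was 0.141 RPKM after heat shock (29 reads), against 0.248 RPKM without heat shock (38 reads). Both fractions were lower after heat shock, chromatin by 3.18-fold (2.71 to 3.74) and cytoplasm by 1.76-fold, with a wide interval of 1.06 to 2.96.

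Among the enzymes, Pck2, the mitochondrial phosphoenolpyruvate carboxykinase, differed most in chromatin. It had 1.53 RPKM in chromatin after heat shock (292 reads), against 14.7 RPKM in chromatin without heat shock (2626 reads). In cytoplasm it had 1.57 RPKM after heat shock (170 reads), against 2.73 RPKM without heat shock (221 reads). Pck2 was 9.57-fold lower in chromatin after heat shock (8.47 to 10.8), the 11th lowest log2 ratio, and 1.75-fold lower in cytoplasm (1.42 to 2.14).

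Asns, asparagine synthetase, had 1.66 RPKM in chromatin after heat shock (585 reads), against 8.54 RPKM in chromatin without heat shock (2835 reads). Its cytoplasmic level was 1.29 RPKM after heat shock (260 reads), against 1.95 RPKM without heat shock (292 reads). Like Pck2, it differed more in chromatin, at 5.16-fold lower (4.71 to 5.64), than in cytoplasm, at 1.51-fold lower (1.27 to 1.79).

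Psat1, a transaminase of serine synthesis, had 2.13 RPKM in chromatin after heat shock (1776 reads), against 4.96 RPKM in chromatin without heat shock (3888 reads). In cytoplasm it had 1.76 RPKM after heat shock (835 reads), against 2.75 RPKM without heat shock (973 reads). The chromatin level was 2.33-fold lower (2.20 to 2.46) and the cytoplasmic level 1.56-fold lower (1.42 to 1.72).

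Mthfd2, a mitochondrial enzyme of one-carbon folate metabolism, had 1.53 RPKM in chromatin after heat shock (604 reads), against 2.46 RPKM in chromatin without heat shock (915 reads). Its cytoplasmic level was 1.11 RPKM after heat shock (250 reads), against 1.63 RPKM without heat shock (274 reads). On the scale as deposited the fractions gave like ratios, 1.61-fold lower in chromatin (1.45 to 1.79) and 1.47-fold lower in cytoplasm (1.23 to 1.75). Relative to the all-gene median of its fraction, Mthfd2 was at -0.70 in chromatin and -0.04 in cytoplasm on the log2 scale.

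The cystine and glutathione genes were both lower in chromatin after heat shock, and neither was lower in cytoplasm by its interval. Slc7a11, the cystine and glutamate exchanger, had 0.0271 RPKM in chromatin after heat shock (292 reads), against 0.0974 RPKM in chromatin without heat shock (986 reads). In cytoplasm it had 0.00571 RPKM after heat shock (35 reads), against 0.00503 RPKM without heat shock (23 reads). These values are per kilobase of the implied length of 551089 bp. The chromatin level was 3.59-fold lower (3.15 to 4.11), and the cytoplasmic ratio of 1.13 had an interval of 0.651 to 2.01.

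Chac1, which degrades glutathione, was the one member higher in cytoplasm after heat shock with an interval that excludes no difference. It had 6.04 RPKM in cytoplasm after heat shock (212 reads), against 2.03 RPKM in cytoplasm without heat shock (53 reads), 2.98-fold higher (2.20 to 4.11). In chromatin it had 10.5 RPKM after heat shock (645 reads), against 14.6 RPKM without heat shock (848 reads), 1.40-fold lower (1.26 to 1.55). Its cytoplasmic log2 ratio ranked 208th highest of 7350 genes.

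**Figure D1:**
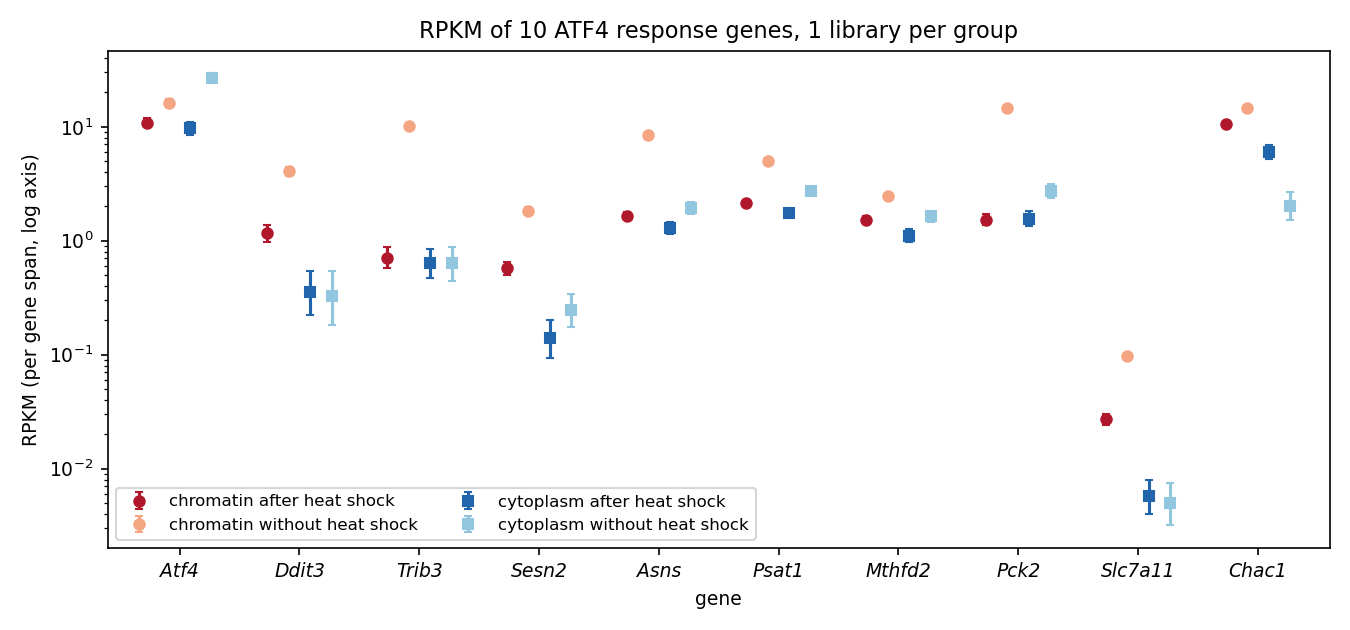
RPKM of each gene on a log axis in chromatin after heat shock, chromatin without heat shock, cytoplasm after heat shock and cytoplasm without heat shock, 1 library each, with bars for the exact 95% Poisson interval on reads. For Trib3, chromatin without heat shock (10.2 RPKM) stands above the other 3 libraries (0.638 to 0.712 RPKM), and for Atf4 cytoplasm without heat shock is the highest (27.0 RPKM).

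Levels relative to the span also changed their order within chromatin. Without heat shock Atf4, Pck2 and Chac1 were the highest of the 10 genes and their Poisson intervals overlapped, with Trib3 4th. After heat shock Atf4 and Chac1 were again the highest, with overlapping intervals, while Pck2 was 5th, next to Asns and Mthfd2 at 1.66 and 1.53 RPKM, and Trib3 was 8th, next to Sesn2. Members with the TGATGNAA match printed above were 14.3-fold (Trib3), 9.57-fold (Pck2), 5.16-fold (Asns), 3.59-fold (Slc7a11) and 1.40-fold (Chac1) lower in chromatin after heat shock. Members without it were 3.51-fold (Ddit3), 3.18-fold (Sesn2), 2.33-fold (Psat1), 1.61-fold (Mthfd2) and 1.49-fold (Atf4) lower, and the ranges overlapped. Trib3 and Pck2 were picked for their fall in this contrast, so nothing about the match is read from these folds.

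Gene span moved with the heat shock ratio in chromatin, and its part in these results was not tested. Trib3, Pck2, Asns, Ddit3 and Sesn2 have implied lengths of over 5 to 20 kb, a class of 2479 genes with a median log2 ratio of 0.10, of which 10.2% were at least 2-fold lower. Psat1 and Mthfd2 fall in the class of over 20 to 100 kb, where the median was -0.10 and 10.3% were at least 2-fold lower. Chac1 and Atf4 fall in the class of over 1 to 5 kb, where the median was 0.39 and 6.72% were at least 2-fold lower. Slc7a11, itself below the level filter, falls in the class of over 100 kb, where the median was -0.39 and 22.2% were at least 2-fold lower.

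In cytoplasm, the contrast that was not used to pick Trib3 and Pck2, 1 of 9 members was at least 2-fold lower after heat shock (Atf4), where 8.57% of 7350 genes were, and 1 of 9 was at least 2-fold higher (Chac1), where 4.52% of genes were. With 9 genes these shares are near the background. The median log2 ratio was -0.53 over the 9 members and -0.48 over all genes, so the typical member lay where the typical gene lay. Relative to the median of all genes, Chac1 was at 2.01 and Atf4 at -0.99 on the log2 scale, and Asns, Psat1, Sesn2 and Mthfd2 lay between -0.14 and -0.04. Of the 10 members, 6 had a plain ratio whose interval lay below 1, 1 above 1 (Chac1) and 3 on both sides of 1 (Trib3, Ddit3 and Slc7a11). No share of all genes by interval is given here, so these counts are not read as particular to the members. The plain ratio itself was below 1 in 6 of 10 members and in 80.5% of 10763 genes. Of all genes past 2-fold in cytoplasm, 34.5% were on the higher side, 21.7% when library RPKM sums were made equal and 79.4% with the median set to 0.

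**Figure D2:**
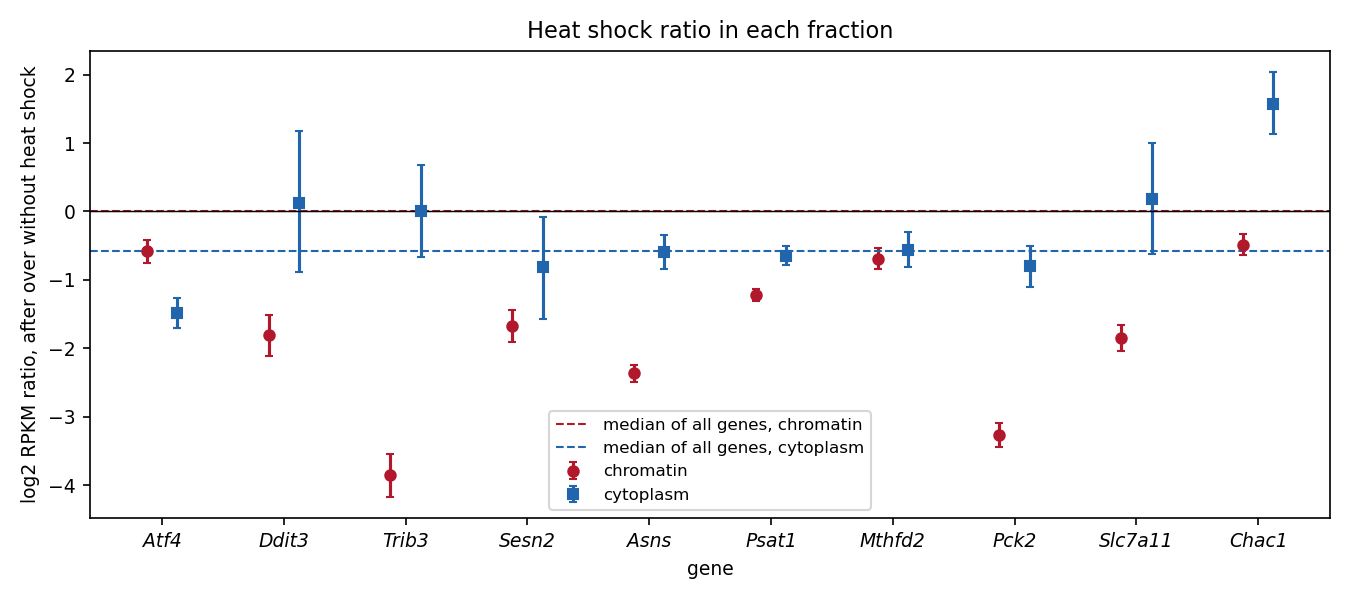
Plain log2 RPKM ratio after over without heat shock for each gene in chromatin (circles) and cytoplasm (squares), with exact 95% intervals on reads; dashed lines mark the median of all genes with at least 20 reads. All 10 chromatin ratios lie below 0, while the cytoplasmic ratios run from -1.48 for Atf4 to 1.58 for Chac1.

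The heat shock ratios of both fractions were then set against each other, gene by gene. Chromatin minus cytoplasm, the difference of log2 ratios was -1 or lower in 5 of 9 members (Trib3, Pck2, Asns, Chac1 and Ddit3), where 6.23% of 7302 genes were, and 1 or higher in 0 of 9, where 25.5% of genes were. The median was -1.74 over the 9 members and 0.48 over all genes. This difference holds the contrast on which genes were picked, so the counts are a description. As a ratio of the plain ratios, Trib3 was 14.4-fold lower in chromatin (8.57 to 24.0), Pck2 5.48-fold (4.31 to 6.97), Chac1 4.17-fold (3.01 to 5.84) and Asns 3.42-fold (2.82 to 4.15). Slc7a11, below the level filter, was 4.07-fold lower in chromatin by this measure (2.29 to 7.33), close to Chac1. Atf4 was the exception among the members, with a ratio 1.87-fold higher in chromatin (1.54 to 2.27). Its log2 difference of 0.90 was nearer the all-gene median, and 70.1% of genes lay below it. That difference became 0.48 with equal library sums and 0.38 with each median set to 0. Mthfd2 had an interval of 0.744 to 1.12, which includes no difference between the fractions on this scale, but its log2 difference of -0.14 became -0.59 with equal library sums and -0.66 with each median set to 0. Genes with a difference of 1 or more made up 80.3% of all genes past the threshold, 48.2% when library RPKM sums were made equal and 44.2% with each median set to 0.

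**Figure D3:**
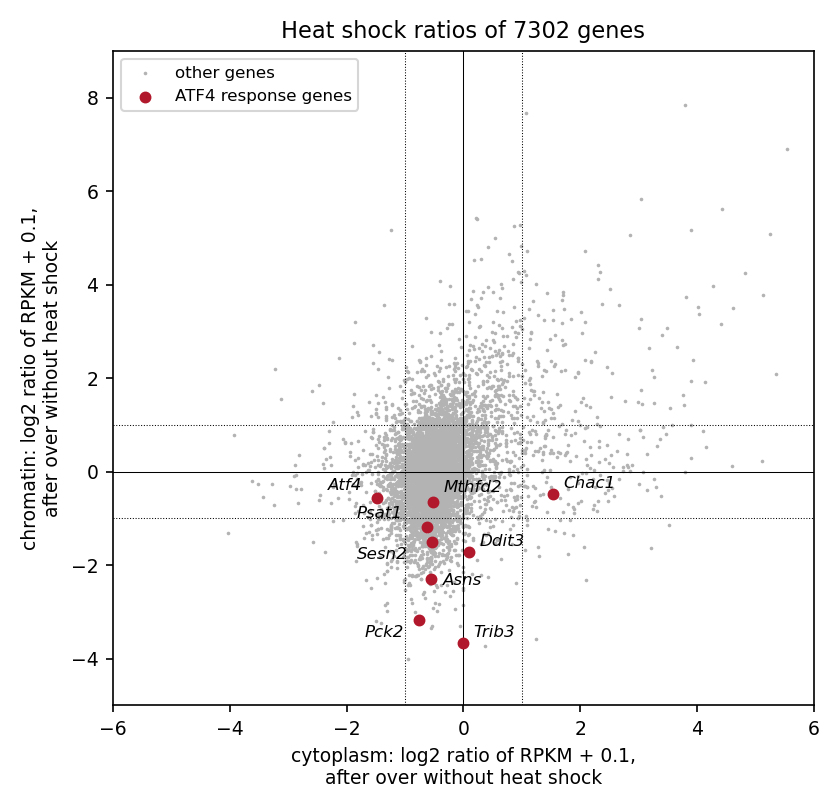
Log2 ratio of RPKM + 0.1 after over without heat shock in chromatin (vertical) against cytoplasm (horizontal) for 7302 genes (grey) and 9 ATF4 response genes (red), with dotted lines at 2-fold; Slc7a11 is below the level filter. Trib3 lies at -3.67 in chromatin and 0.00 in cytoplasm, and Chac1 at -0.48 and 1.53.

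Chromatin was last compared with cytoplasm within each condition. Both comparisons share a chromatin library with the heat shock contrast, so they are not independent of it. Without heat shock, 6 of 9 members passed 2-fold toward chromatin (Trib3, Ddit3, Chac1, Sesn2, Pck2 and Asns), where 54.8% of 7379 genes did, and 0 of 9 toward cytoplasm, where 11.0% did. The largest plain ratios were 19.4-fold for Slc7a11 (12.8 to 30.7), 16.0-fold for Trib3 (11.4 to 23.1) and 12.4-fold for Ddit3 (7.43 to 22.4). Atf4 alone of the 10 was lower in chromatin, 1.67-fold (1.49 to 1.87), a direction that turned with equal library sums (log2 ratio 0.93). Psat1 and Mthfd2 were 1.80-fold (1.68 to 1.94) and 1.51-fold (1.32 to 1.73) higher in chromatin, but both turned once the all-gene median was set to 0 (log2 ratios of -0.33 and -0.60), and Mthfd2 also without the 10 highest genes (-0.24). The median log2 ratio was 2.38 over the members and 1.16 over all genes. Chromatin over cytoplasm ratios rose with gene span across the classes that hold members. Without heat shock the class median (log2) was -0.12 for Chac1 and Atf4, and 0.65 for Trib3, Pck2, Asns, Ddit3 and Sesn2. It was 1.62 for Psat1 and Mthfd2, and 2.52 for Slc7a11, in whose class 98.5% of genes passed 2-fold toward chromatin. In the same order, the class medians after heat shock were 0.61, 1.24, 2.01 and 2.56. The part of span in the members' ratios was not tested.

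After heat shock, 2 of 9 members passed 2-fold toward chromatin (Ddit3 and Sesn2), where 67.8% of 7482 genes did, and 0 of 9 toward cytoplasm, where 6.46% did. Ratios of Trib3 (1.12, 0.777 to 1.62), Pck2 (0.979, 0.807 to 1.19) and Atf4 (1.12, 0.962 to 1.31) had intervals that include no difference between the fractions on the scale as deposited. The other 7 had intervals above 1, from Slc7a11 (4.75-fold, 3.34 to 6.96), Sesn2 (4.07-fold, 2.75 to 6.22) and Ddit3 (3.24-fold, 2.05 to 5.35) to Chac1 at 1.73-fold, Mthfd2 at 1.38-fold, Asns at 1.28-fold and Psat1 at 1.21-fold. No share of all genes by interval is given here. The plain ratio itself was below 1 in 1 of 10 members and in 12.3% of 14681 genes with at least 20 reads. Which fraction was higher rested on the scale. With equal library sums all 9 members passing the level filter were higher in chromatin, with log2 ratios from 1.15 for Pck2 to 2.50 for Ddit3. Once the all-gene median was set to 0 all 9 were lower, from -1.66 for Pck2 to -0.15 for Sesn2, and without the 10 highest genes only Ddit3 and Sesn2 of the 9 were higher in chromatin. The median log2 ratio was 0.34 over the members and 1.64 over all genes, so the typical member lay below the typical gene on this axis after heat shock and above it without heat shock. Genes higher in chromatin made up 91.3% of all genes past 2-fold after heat shock and 83.3% without it; with the median set to 0 these were 38.0% and 43.9%, with the 10 highest genes left out 80.4% and 63.2%, and with equal library sums 97.5% and 96.3%.

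**Figure D4:**
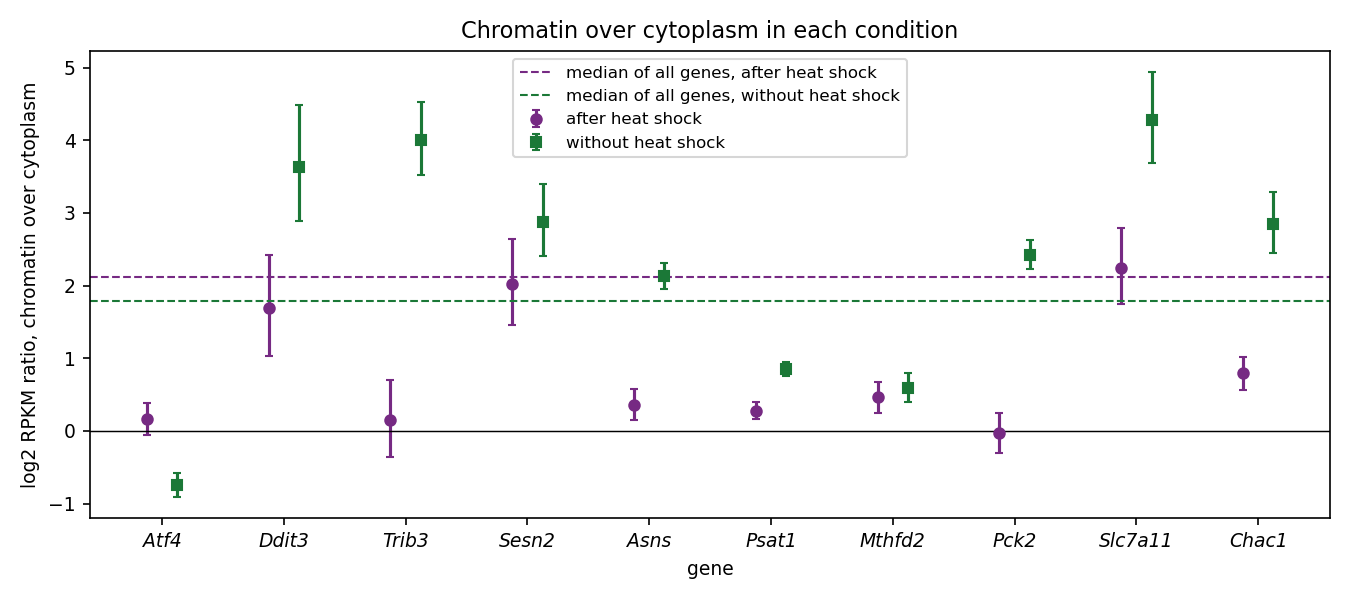
Plain log2 RPKM ratio of chromatin over cytoplasm for each gene after heat shock (circles) and without heat shock (squares), with exact 95% intervals on reads; dashed lines mark the median of all genes with at least 20 reads, 2.12 after and 1.79 without heat shock. On the RPKM scale as deposited, Trib3 had a ratio of 1.12 after heat shock, against 16.0 without it, and Atf4 is the one gene below 0 without heat shock (0.93 with equal library sums).

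The genes whose 4-library pattern was most like those of Trib3 and Pck2 were found by Euclidean distance between log2(RPKM + 0.1) profiles centred over the 4 libraries, among 6918 genes. The nearest to Trib3 was ENSMUSG00000038521, at a distance of 0.59, with 37 reads in chromatin after heat shock against 386 without, and 12 reads in cytoplasm after heat shock against 9 without. The other 2 nearest to Trib3 have implied lengths of 38880 and 38711 bp and were 15.1-fold and 12.0-fold lower in chromatin after heat shock. In cytoplasm the first had 11 reads after heat shock against 10 without, and the second had 2 against 16, unlike the near-equal levels of Trib3 there. All 3 nearest genes lay below the pseudocount of 0.1 in cytoplasm, at 0.00464 to 0.0903 RPKM, against 0.639 and 0.638 RPKM for Trib3. The pseudocount pulls such low cytoplasmic differences toward 0, so the likeness to Trib3 there rests partly on it. The nearest to Pck2 was ENSMUSG00000027574, at a distance of 0.47, with 165 reads in chromatin after heat shock against 1101 without, and 66 reads in cytoplasm after heat shock against 88 without. The next, a gene of 67681 bp, was far more abundant, at 12.0 RPKM in chromatin after heat shock against 70.7 RPKM without. Among members, Asns was the 5th nearest gene to Pck2, at 0.64, and Pck2 was the 21st nearest to Trib3, at 1.02. Of the members compared, Atf4 was the least like Trib3, at 3.31 and rank 5032, and Mthfd2 was next, at 2.62 and rank 2400.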

How the data were processed

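RNA-seq of chromatin and cytoplasm was analysed, 1 library per group, with groups from the sample titles. The deposited files hold 1 RPKM value per Ensembl identifier, computed by the authors, and leave out genes with 0 reads. Per the submitters' processing notes, cutadapt, STAR and build GRCm38 were used. For the read counter, annotation release and strand handling, the entry is "not given in the sources used here".

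Library totals were recovered as the largest common divisor of whole inverse RPKM values (tolerance 0.002) that reached 0.5 of the count of the most frequent one over 20000 random pairs. Each gene's reads and length were then the smallest whole numbers fitting its 4 values, with a relative error under 1e-12 for every gene. Reads summed to 98.4% to 99.7% of the totals. A gene whose reads all share a factor with its length comes out with too few reads, and its interval is then too wide. The recovery and the 2-fold rule were tried on simulated data built from these recovered lengths and reads. Differences were planted only in genes with ample expected reads in each library. The 2-fold rule was therefore not tried on genes with as few cytoplasmic reads as some members have.

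Log2 ratios used RPKM + 0.1, so differences of low genes are understated, and a mean of at least 0.5 RPKM. Kept genes without a read in a compared library got no ratio (119 in the chromatin and 412 in the cytoplasm heat shock comparison). Folds are plain RPKM ratios. For the ratio of ratios, the interval is that of the conditional odds ratio. The members, lists and rule for named genes (all 10 members, other listed genes past 2-fold, and the 3 profiles nearest to Trib3 and to Pck2) were chosen with earlier results of these data known. The other lists could not be matched to identifiers and have no values. Alternatives covered pseudocount, filter, scale and recovered reads. Python 3.11.15, numpy 2.4.6, pandas 2.3.3, scipy 1.17.1 and matplotlib 3.10.9 were used. Promoter sequences and gene spans are from RefSeq.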

Additional observations from a re-analysis of the deposited data

Results flagged for a closer look

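Chac1 moved in opposite directions in the 2 fractions after heat shock, with a plain log2 ratio of -0.48 in chromatin and 1.58 in cytoplasm and counting intervals that both exclude 0. It was the one member of the 10 that did so. With 1 library per group, the difference between the fractions was not tested.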

How the results depend on the processing

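No paired analysis was possible because each group holds 1 library and the labels carry no replicate numbers. Each log2 ratio of the 9 members in the chromatin heat shock comparison stayed below 0 under each of the 8 alternatives that tested it (7 for Sesn2, which a minimum of 1 RPKM left out), and 4 to 9 members were at least 2-fold lower, fewest with a pseudocount of 1 and most with library sums of RPKM made equal. The median over the members there was -0.93 with a pseudocount of 1 and -2.19 with equal RPKM sums. In cytoplasm, setting the median of all genes to 0 left 0 members at least 2-fold lower and a member median of -0.054. For chromatin over cytoplasm without heat shock, the member median was 1.69 with a pseudocount of 1, 3.95 with equal RPKM sums, 1.22 with a centred median, 1.57 without the 10 highest genes and 2.64 with recovered reads, and 1 member (Atf4) was at least 2-fold lower with a centred median or without the 10 highest genes. After heat shock, members at least 2-fold higher in chromatin numbered 0 with a pseudocount of 1, 1 with a minimum of 1 RPKM, 9 with equal RPKM sums, 0 with a centred median and 1 without the 10 highest genes. With the median set to 0, 6 members were at least 2-fold lower, the member median was -1.30, and all 9 log2 ratios were below 0, with Ddit3 and Sesn2 at -0.18 and -0.15. The member median was 1.50 with equal RPKM sums and -0.43 without the 10 highest genes. The chromatin minus cytoplasm difference kept its member counts within 1.5 times and its median sign under all 8. Counts over all genes moved by more than 1.5 times: at least 2-fold higher and lower, they ran from 511 to 3301 (1016 as reported) and from 275 to 2687 (820) for chromatin, from 188 to 1029 (332) and from 114 to 2365 (630) for cytoplasm, from 1508 to 8620 (4041) and from 239 to 1926 (810) for chromatin over cytoplasm without heat shock, from 1115 to 10979 (5074) and from 166 to 1823 (483) after it, and from 777 to 2633 (1860) and from 249 to 1133 (455) for the difference. Settings with another filter or with recovered reads compared other numbers of genes, so these ranges are of counts and not of shares. The difference took in 7302 genes as reported, and 4473 with a minimum of 1 RPKM, where 249 were lower. It took in 14994 with no minimum, where 1133 were lower, and 10496 with recovered reads, where 2633 were higher. Depth limits Ddit3, Trib3, Sesn2 and Slc7a11 most, with 15 to 47 reads in cytoplasm.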
